A study of Mus musculus with 36 samples.

Results

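CD11c-positive and CD11c-negative microglia of the hippocampus of APP mice were compared. The samples were taken by their titles: 11 of the 36 samples of the series, which hold 788 of its 2657 cells and form 7 of its 23 replicates. The study sorted single microglia from cortex and hippocampus of transgenic APP/PS1 mice, called APP mice here, and of wild-type (WT) controls, all male and 6 months old. Microglia are the resident macrophages of the brain. They were recognised in the sorter as CD45-intermediate, CD11b-high, DRAQ5-positive and DAPI-negative cells, and cells with or without surface CD11c were collected apart into well plates for a protocol based on Smart-seq2. A replicate is the sum of the libraries that carry 1 animal name in their titles. The CD11c-positive group has 3 replicates, named 1-2, 2-3 and 4, with 147, 145 and 70 cells and 4451474, 3207673 and 1423625 counts. The CD11c-negative group has 4 replicates, named 1 to 4, with 142, 69, 145 and 70 cells and 3378278, 1319617, 3576536 and 1127618 counts. By their titles both groups come from mice that carry the same amyloid-forming transgenes, which in this strain are driven by the mouse prion protein promoter. The sources used here do not say whether the names 1-2 and 2-3 mark pooled animals that share animal 2, and the strain background was not given either. The series' design text gives 4 animals per condition, while the titles of the CD11c-positive group hold 3 names. Where replicates are not certain to be separate animals, p-values measure only the spread between these samples.

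Itgax encodes CD11c, the integrin subunit by which the cells were sorted. In mice that deposit amyloid, CD11c marks a subset of microglia that gather at plaques. Such cells, often called disease-associated microglia, are known for high levels of lipid handling and lysosomal genes and low levels of the genes that mark resting, homeostatic microglia. The receptor TREM2 with its adaptor TYROBP and the lipid carrier APOE are parts of this programme.

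Levels are CPM, the counts of a gene per total of 1e+06 after scaling by edgeR's TMM factors. Changes are log2 fold changes ± SE of CD11c-positive over CD11c-negative cells. Adjusted p values come from the quasi-likelihood test of edgeR and were corrected over 14892 genes by the method of Benjamini and Hochberg. A gene is said to have risen or fallen where its adjusted p was under 0.05. Replicate values stand in the order 1-2, 2-3 and 4 for CD11c-positive and 1 to 4 for CD11c-negative and WT hippocampus. Mean ± SD have n = 3 for CD11c-positive and n = 4 for CD11c-negative cells. The 11 libraries held 956491 to 2292059 counts each, and no 2 of them held the same values. They drew on 79 distinct cell barcodes, 49 of which occur in all 11.

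Several facts of the libraries moved with the gate. The genotype tag of the labels reads wild type in 5 of 5 libraries of the CD11c-positive group and in 2 of 6 of the other group, against their titles, and the titles were followed. The tagged genotype thus moves with the gate, and its part in the results was not tested. Each title also holds a leading number of unstated meaning that differs between the hippocampal gates, so that number and the gate cannot be told apart. At 10000 counts per cell, 1084 ± 167 genes were detected per CD11c-positive cell (replicates 910.3 to 1242) and 748 ± 33.1 per CD11c-negative cell (706 to 775). The mitochondrial share of the counts was 2.31% ± 0.326 in CD11c-positive and 1.14% ± 0.045 in CD11c-negative replicates. Both measures separated the groups, with the smallest p that 35 assignments of the replicates allow (exact permutation test, two-sided, p = 0.0286 each, 0.0857 adjusted over 15 measures). The median count per cell was 20492 ± 4748 and 17559 ± 2631 (exact permutation test, two-sided, p = 0.371). The part of these measures in the results below was not tested beyond the fits that take up detected genes per cell at full depth or equal depth.

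The cells expressed the microglial markers, and counts of markers of other cells were seen in both groups. All 12 microglial markers had counts in both groups, and their summed level was lower in CD11c-positive cells, at 15701 to 17720.3 CPM of the raw library totals against 23327 to 27379 (exact permutation test, two-sided, p = 0.0286, adjusted 0.0857). In WT hippocampal replicates the microglial sum was 17664 to 20145 CPM, below all CD11c-negative APP replicates and reaching into the CD11c-positive range. Of 9 monocyte markers 5 had counts in CD11c-positive and 2 in CD11c-negative cells. Their summed levels were 48.6 to 158 and 0 to 36.4 CPM (the same exact p as for the microglial sum). Ccr2 held most of these sums (means of 53.2 and 19.3 CPM), and Vcan, Ms4a4c and Ly6c2 had counts in CD11c-positive cells only. S100a4 was at 0 in both, and Plac8 and Chil3 were not among the genes listed in the data. Markers not listed in the data stay in the numbers of markers given here. Neutrophil markers reached at most 0.702 CPM, with 4 of 9 seen in CD11c-positive and 0 of 9 in CD11c-negative cells. Dendritic cell markers lay at 66.4 to 292 and 7.98 to 113 CPM, with 7 and 4 of 10 seen, and Clec9a and Ccr7 at 0 in both. Cd209a, Clec10a, Kmo and Flt3 had counts in CD11c-positive cells only, with highest replicates at 136, 63.9, 28.8 and 5.62 CPM. Batf3 had means of 45.6 and 42.7 CPM. Zbtb46 and Siglecg were lower in CD11c-positive cells (means of 15.9 against 33.0 and 4.80 against 6.92 CPM), and Xcr1 had 1 count, in CD11c-negative cells. Neuronal markers lay at 58.6 to 246 and 3.55 to 111 CPM with 7 of 13 seen in each group, and Rbfox3, Tubb3 and Gad1 were at 0 in both. Lymphocyte markers summed to 489 to 645 CPM in CD11c-positive and 541 to 1013 CPM in CD11c-negative replicates, nearly all from Ighm (means of 538 and 756 CPM). Cd8a, Trac and Nkg7 were at 0 in both, and Cd3e, Cd3d and Cd79a were not among the genes listed in the data. Endothelial and mural markers summed to 567 to 739.7 and 374 to 619.9 CPM, mostly Bsg, with Cldn5 at 0 in both. Astrocyte markers were lower in CD11c-positive cells without overlap, at 140.2 to 158 against 175 to 384 CPM (exact permutation test, two-sided, p = 0.0571), mostly Slc1a3, with Gfap and Aqp4 at 0 in both. Oligodendrocyte markers had counts for 8 and 6 of 11, at 52.7 to 136 and 12.9 to 134 CPM, and border macrophage markers for 6 and 3 of 10, at 75.5 to 147 and 35.6 to 149 CPM. Cells with at least 5 counts of at least 2 markers of 1 other cell type made up 3.40% to 7.14% of the CD11c-positive and 0% to 2.90% of the CD11c-negative replicates (exact permutation test, two-sided, p = 0.0571).

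The gene of the sort was present at low levels. Itgax (chromosome 7, 128129547 to 128150657 on GRCm38) stood at 83.9, 79.97 and 64.2 CPM in CD11c-positive and at 0, 31.8, 2.28 and 0.818 CPM in CD11c-negative replicates. The ranges did not overlap, but replicate 2 of the CD11c-negative group held most of the CD11c-negative counts, and the change missed the threshold (3.13 ± 1.61, edgeR adjusted p = 0.493). A count of Itgax was found in 47 of 362 CD11c-positive cells (12.98%) and in 7 of 426 CD11c-negative cells (1.64%). App, whose counts may take in reads of the transgene, stood at 122, 39.98 and 99.4 and 71.1, 111, 95.4 and 76.9 CPM, and these ranges overlapped. Prnp, the gene of the transgene promoter, stood at 9.61, 14.99 and 5.41 and 15.5, 0, 24.9 and 86.7 CPM, which overlapped too.

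In CD11c-positive cells of the hippocampus 66 genes rose and 16 fell. The rises included genes that CD11c-negative cells hardly expressed, among them Igf1, Gas7, Cst7 and Lpl, and abundant genes of lipid carriage and the endosome, Apoe, Cd63 and Gm2a. The falls included the homeostatic microglial genes Tmem119, Adgrg1, Slc2a5, Cx3cr1, P2ry12 and Selplg, and the semaphorin gene Sema4b. The 66 are 0.443% and the 16 are 0.107% of the 14892 genes tested, 0.551% in all, and 1626 genes had an unadjusted p under 0.05. The replicate ranges did not overlap for 64 genes that rose and all 16 that fell, while 7.94% of all tested genes were higher and 3.2% lower without overlap. The exceptions were Rian and St13. With the RLE size factors in place of TMM, which moved the median of the 3480 genes of at least 50 CPM by −0.20, 41 genes rose and 37 fell, so the share of rises among the calls depended on the scaling.

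**Figure D1:**
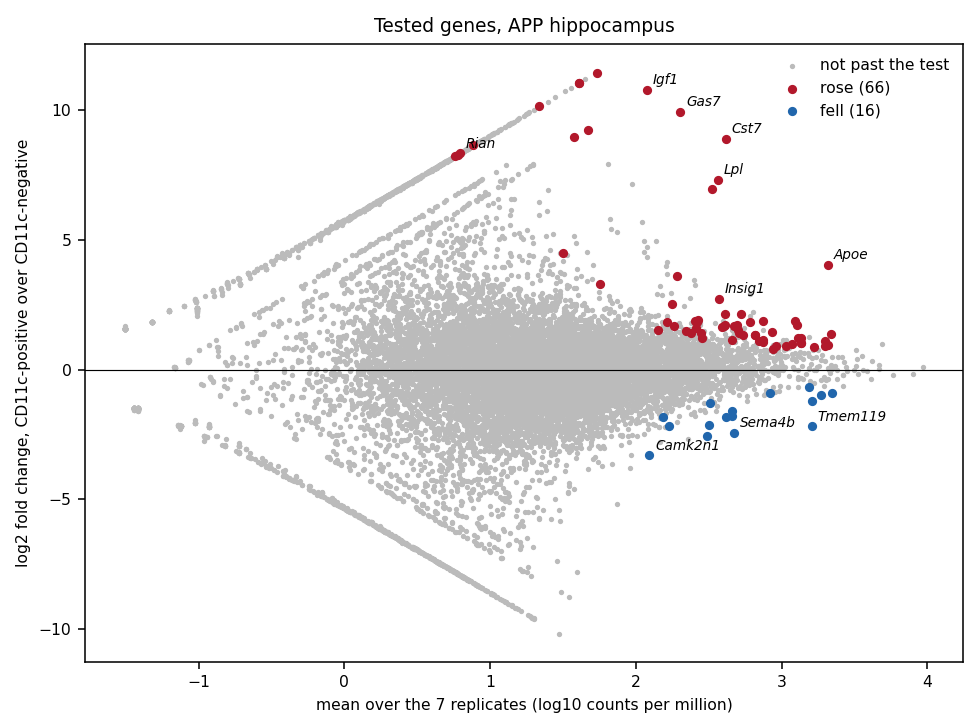
Mean level over the 7 replicates of APP hippocampus (x axis, log10 CPM) and fitted log2 fold change of CD11c-positive over CD11c-negative cells (y axis) of each tested gene. The 66 genes that rose are red and the 16 that fell blue, grey genes were not past the test, and the straight edges at the left are genes at 0 in one group, whose fitted fold change depends on edgeR's prior count.

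The calls rested on few replicates. Leaving out 1 replicate at a time left 35, 30 and 50 calls without CD11c-positive replicate 1-2, 2-3 and 4, and 33, 38, 55 and 59 without CD11c-negative replicate 1, 2, 3 and 4. Called in all 7 of these fits were Igf1, Gas7, Apoe, Insig1, Cd63, Syngr1, Soat1, Gm2a, Sdf2l1, Sod1, Fth1, B2m, Tyrobp and Gm1673, which rose, and Tmem119, Sema4b, Selplg, Cx3cr1, P2ry12, Cmtm6, Kdm6b and Susd3, which fell. Every other called gene lost its call without at least 1 replicate. A further fit took detected genes per cell as a covariate, as the replicate mean at full depth and not at 10000 counts. Those means were 1438, 1062 and 1389 in CD11c-positive and 916, 823, 954 and 814 in CD11c-negative replicates. With this covariate 35 genes were called, 26 of them among the 82. Those that rose were Igf1, Gas7, Apoe, Insig1, Cd63, Rap2b, Syngr1, Cd63-ps, Soat1, Gm6988, Rps25, Serf2, Gm2a, Sdf2l1, Sod1, B2m, Tyrobp, Ctsz, St13 and Dusp3. The 6 that fell with the covariate were Selplg, P2ry12, Cx3cr1, Tmem119, Sema4b and Camk2n1. Without the cells that held markers of other types 43 of the 66 rises and 15 of the 16 falls kept the call, and all 82 kept their direction. With the animal number as replicate block in the 4 APP groups 66 of the 82 kept the call, 55 up and 11 down. The 16 that lost it in the blocked fit were Rab7b, Rian, Akap5, Fam221b, Rpl34, Gm4963, Rps25-ps1, Gm8566, Ctsz, St13, Alkbh5, Ifngr1, Otulinl, Gm15503, Gm10800 and Tmem173. By limma voom 66 of the 82 were called, and the others were Ncam1, Rian, Cyfip2, Apoe, Ttyh2, mt-Te, mt-Nd6, Rap2b, Sdc4, Gm2a, St13, Dusp3, Kdm6b, Gm10800, Tmem173 and Camk2n1.

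**Figure D2:**
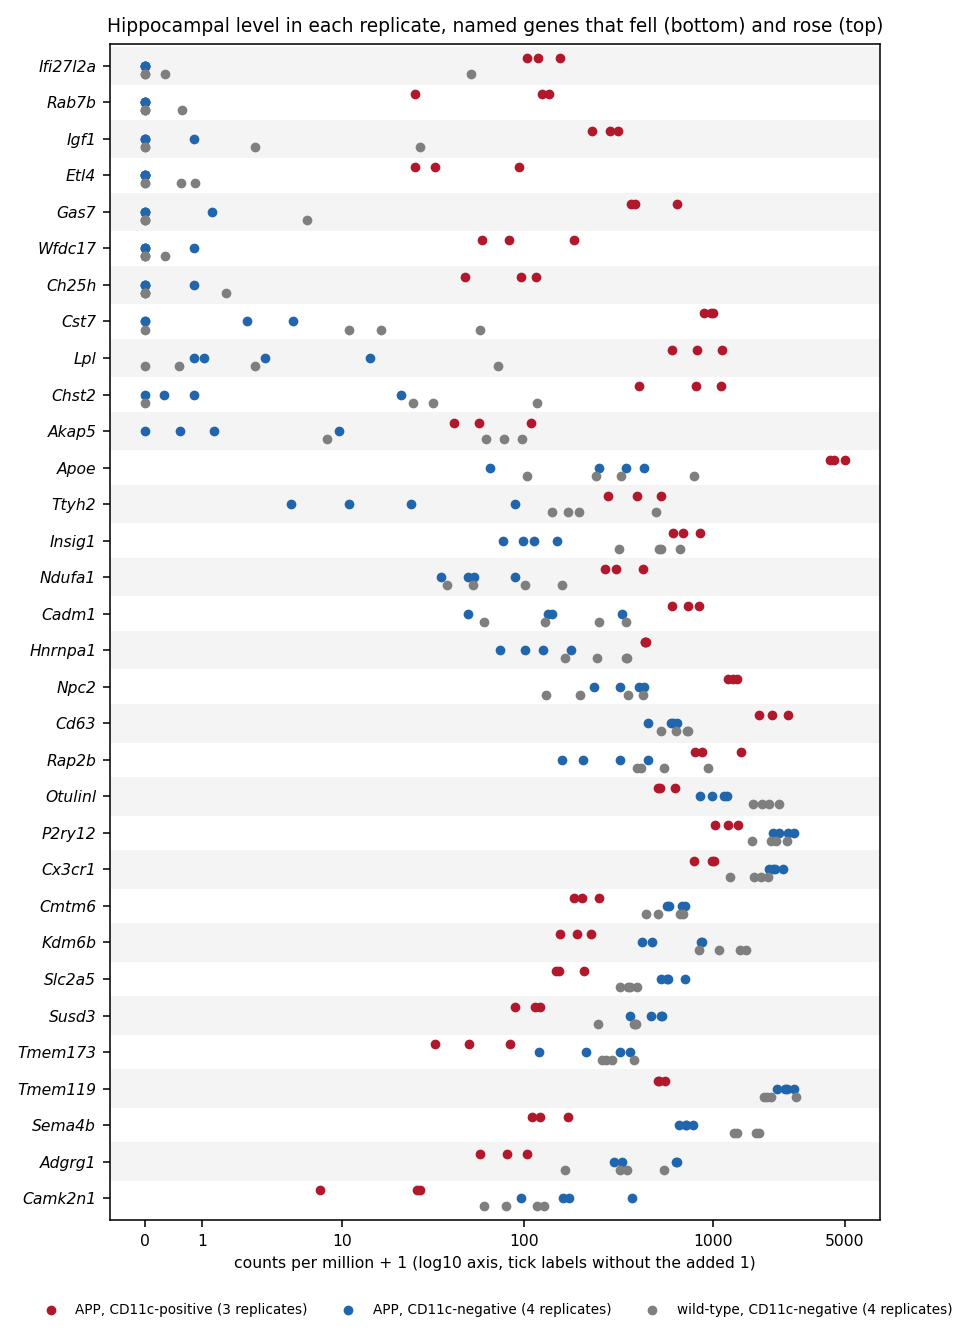
CPM in each hippocampal replicate (log10 axis after adding 1 CPM, tick labels without it) of 20 called genes with the largest rises and 12 with the largest falls. Red points are CD11c-positive and blue points CD11c-negative APP cells, grey points are WT cells, and red and blue points do not overlap in any row.

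Several genes of homeostatic microglia were lower in CD11c-positive cells. Of the 28 members of the homeostatic list 6 fell and 0 rose, and 14 were lower without overlap. Among all tested genes 0.107% fell and 3.2% were lower without overlap. The list's median change was −0.67 (−0.86 with RLE factors) against 0 over all tested genes. Tmem119, a membrane protein that marks microglia among brain macrophages (chromosome 5, 113793729 to 113800516), stood at 559, 516 and 521 CPM in CD11c-positive and 2175, 2479, 2401 and 2696 CPM in CD11c-negative replicates (−2.20 ± 0.17, edgeR adjusted p = 2.59e-08). All CD11c-positive values lay far below the lowest CD11c-negative value. P2ry12, the ADP receptor by which microglia sense injury (chromosome 3, 59216272 to 59262871), stood at 1199, 1029.9 and 1362 and 2248, 2070.1, 2495 and 2687 CPM (−0.99 ± 0.17, edgeR adjusted p = 0.00392). Cx3cr1, the receptor of the neuronal chemokine fractalkine, stood at 1017, 794 and 989 and 1989.7, 2128, 2088 and 2361 CPM (−1.20 ± 0.19, edgeR adjusted p = 0.00167). Both receptor genes were lower in each CD11c-positive replicate than in any CD11c-negative one. Selplg, the P-selectin ligand, stood at 1557, 1476 and 1432 and 2789, 2757, 2832 and 2694 CPM (−0.90 ± 0.12, edgeR adjusted p = 0.000196). The fructose transporter gene Slc2a5 stood at 153, 147 and 208 and 582, 711, 576 and 535 CPM (−1.83 ± 0.32, edgeR adjusted p = 0.00417). Adgrg1, an adhesion G protein-coupled receptor, stood at 103, 57.6 and 81.1 and 644, 333, 636 and 298 CPM (−2.57 ± 0.45, edgeR adjusted p = 0.00417). The other 22 members of the list did not pass the test. Among them Csf1r, the receptor on which microglia depend for survival, stood at 1501 ± 87.8 and 2299.9 ± 196 CPM (edgeR adjusted p = 0.23), and the abundant Cst3 at 7415 ± 764 and 8410.0 ± 492 CPM (edgeR adjusted p = 0.457).

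Further genes that fell encode signalling and surface proteins. Sema4b, a transmembrane semaphorin (chromosome 7, 80186841 to 80226527), stood at 111, 170.3 and 121 CPM in CD11c-positive and 788, 667, 721 and 719 CPM in CD11c-negative replicates (−2.43 ± 0.21, edgeR adjusted p = 2.4e-07). Susd3 stood at 121, 89.6 and 114 and 470.5, 365, 537 and 531 CPM (−2.14 ± 0.34, edgeR adjusted p = 0.00156). Cmtm6, which keeps PD-L1 at the cell surface, stood at 249, 184 and 203 and 691, 714, 571 and 585 CPM (−1.59 ± 0.25, edgeR adjusted p = 0.00156). None of these ranges overlapped. Kdm6b, the demethylase of histone H3 lysine 27, stood at 155, 228 and 192 and 476, 872, 425 and 864 CPM (−1.78 ± 0.27, edgeR adjusted p = 0.000889). Tmem173 encodes STING, an adaptor in the sensing of DNA, and stood at 84.1, 33.3 and 50.7 and 213, 366, 324 and 120.2 CPM (−2.19 ± 0.50, edgeR adjusted p = 0.0373, 0.0654 with the replicate block). Ifngr1, the interferon gamma receptor chain, fell least, from 1840.5 ± 169.9 to 1169.8 ± 266 CPM (−0.65 ± 0.14, edgeR adjusted p = 0.03, 0.121 with the replicate block). Camk2n1, an inhibitor of the kinase CaMKII, had the largest fall of the 16, with 7.43, 27.3 and 26.4 CPM against 95.9, 374, 173 and 161 CPM (−3.31 ± 0.66, edgeR adjusted p = 0.0135). Its CD11c-negative replicates varied widely among themselves, but all lay above the highest CD11c-positive value. Otulinl fell from 1044 ± 156 to 556 ± 62.6 CPM, and the predicted genes Gm15503 and Gm10800 from 432 ± 62.9 to 178 ± 5.78 and from 221 ± 133 to 62.2 ± 8.73 CPM, and these 3 were not called with the replicate block (edgeR adjusted p = 0.101, 0.0632 and 0.0856).

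Many genes of disease-associated microglia were higher in CD11c-positive cells, and none of those tested fell. Of the list's 32 tested members 12 rose and 0 fell, and 27 were higher without overlap. Among all tested genes 0.443% rose and 7.94% were higher without overlap. The list's median change was 2.88 (2.68 with RLE factors), while Gpnmb had no count in either gate. In CD11c-positive cells Apoe (chromosome 7, 19696109 to 19699188), the lipid carrier of the brain, reached 4360.3, 4977 and 4189 CPM, against 435, 248, 346 and 65.4 CPM in CD11c-negative cells (4.04 ± 0.56, edgeR adjusted p = 0.000369). By limma voom the Apoe change was 3.85 and was not called (adjusted p = 0.869). With each cell thinned to 5000 counts, an Apoe count was held by 98.9% of the CD11c-positive cells and 17.1% of the others, leaving out 9 and 17 shallower cells. Without thinning the shares were 99.7% and 35.4%. Cst7, which encodes the protease inhibitor cystatin F (chromosome 2, 150570415 to 150578944), stood at 984, 1005 and 895 and 5.06, 0, 0 and 2.45 CPM (8.89 ± 1.75, edgeR adjusted p = 0.0127). The shares for Cst7 were 56.7% and 0.244% thinned, 77.9% and 0.939% without thinning, so its counts came from most CD11c-positive cells and hardly any CD11c-negative ones. Lpl, lipoprotein lipase (chromosome 8, 68880491 to 68907448), stood at 825, 1113 and 609.8 and 1.07, 3.31, 14.5 and 0.818 CPM (7.33 ± 1.39, edgeR adjusted p = 0.0116). Igf1, insulin-like growth factor 1 (chromosome 10, 87858265 to 87937042), stood at 316, 288 and 229 CPM, and its single CD11c-negative count came from replicate 4, a ratio of 3050.5-fold (95% exact interval 547 to 120532) that covers counting error only (edgeR adjusted p = 0.00392). The tetraspanin gene Cd63 of late endosomes (chromosome 10, 128900989 to 128912822) stood at 1761, 2497 and 2056 and 455, 649, 599.7 and 617 CPM (1.86 ± 0.21, edgeR adjusted p = 2.51e-05), and its relative Cd9 at 1706, 1676 and 1508 and 719, 819, 969.9 and 804 CPM (0.98 ± 0.18, edgeR adjusted p = 0.00775). The adhesion molecule gene Cadm1 stood at 738, 841 and 612 and 140.4, 49.7, 134 and 329.5 CPM (2.16 ± 0.48, edgeR adjusted p = 0.0342).

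Further abundant members of this list had smaller changes. Tyrobp, the signalling adaptor of TREM2, stood at 1846, 1742 and 2160.0 and 834, 999.9, 775 and 1170.1 CPM (1.02 ± 0.17, edgeR adjusted p = 0.00232), with no overlap. Trem2 itself stood at 1845, 2064 and 1716 and 1286, 1029.8, 1389 and 1518 CPM, without overlap, and did not pass (edgeR adjusted p = 0.281). Of the 18 tested genes of Trem2 signalling 1, Tyrobp, rose, with a list median of 0.13 that was −0.10 with RLE factors. The ferritin heavy chain gene Fth1 stood at 1820.2, 1791 and 2141 and 682, 929.7, 1011 and 714 CPM (1.20 ± 0.20, edgeR adjusted p = 0.00232). Other members were higher without overlap but missed the threshold. For example, Clec7a, the receptor for fungal glucans, stood at 319, 341 and 263 and 30.9, 0, 6.34 and 0.818 CPM (edgeR adjusted p = 0.256).

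Several genes that carry, esterify or oxidise lipids rose, and 1 gene of sterol sensing rose too. Of 22 tested genes of lipoprotein uptake, lipid transport and droplets 5 rose and 0 fell, with a median of 1.05. The 5 were Apoe, Lpl, Ch25h, Npc2 and Soat1, while 0.443% of all tested genes rose. Npc2, which hands cholesterol out of the lysosome, stood at 1208, 1346 and 1287 and 324, 235, 435 and 407 CPM (1.87 ± 0.37, edgeR adjusted p = 0.0138). Soat1, which esterifies cholesterol for storage, stood at 723, 954 and 769 and 215, 181, 246 and 359.8 CPM (1.70 ± 0.28, edgeR adjusted p = 0.00263). Ch25h, which makes 25-hydroxycholesterol, stood at 96.3, 116 and 48.00 CPM, against 1 count in CD11c-negative replicate 4, a ratio of 991-fold (95% exact interval 177 to 39192) (edgeR adjusted p = 0.03). The cholesterol synthesis and SREBP list had a median of 1.14, which was 0.60 over its 5 members of at least 50 CPM. Of its 24 tested members 1 rose and 0 fell. That member was Insig1 (chromosome 5, 28071363 to 28078662), which holds the SREBP activator in the endoplasmic reticulum when sterols are plentiful, at 700.1, 851 and 619 and 149, 113, 98.4 and 76.9 CPM (2.72 ± 0.31, edgeR adjusted p = 2.51e-05). The efflux transporter gene Abcg1 stood at 2616, 4428 and 2259 and 2254, 2317, 2152 and 2036 CPM with overlap (edgeR adjusted p = 0.248).

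A few lysosomal genes rose. Of 39 tested lysosomal genes 4 rose and 0 fell, 13 were higher and 2 lower without overlap, and the median was 0.54. Over all tested genes 0.443% rose, 7.94% were higher and 3.2% lower without overlap. Gm2a, the cofactor for ganglioside breakdown (chromosome 11, 55098115 to 55113029), stood at 3052, 4524 and 2491 and 1100.0, 1479, 1377 and 1239 CPM (1.37 ± 0.18, edgeR adjusted p = 0.000204, but 0.349 by limma voom). Cd68, a membrane glycoprotein of macrophage lysosomes, stood at 1809.9, 2063 and 1867 and 733, 1094, 900.4 and 1013 CPM (1.03 ± 0.23, edgeR adjusted p = 0.033). Npc2, described above, and Rab7b, a GTPase of late endosomes and lysosomes, were the other 2. Of 15 tested cystatins and cathepsins 2 rose, Cst7 and the carboxypeptidase gene Ctsz at 2564, 2845 and 2743 and 1414, 1223, 1702 and 1487 CPM (0.90 ± 0.17, edgeR adjusted p = 0.00743, 0.0548 with the replicate block). Counted as cells that held 5 or more counts, the Ctsz change was −0.076. The proteases Ctsb and Ctss just missed, at 4208 ± 228 against 2513 ± 691 CPM (edgeR adjusted p = 0.0591) and 4301 ± 485 against 2972 ± 82.9 CPM (edgeR adjusted p = 0.0683), both without overlap. Ctsd stood at 5032 ± 506 and 4403 ± 341 CPM with overlap (edgeR adjusted p = 0.816).

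Some of the genes that rose were at or near 0 in CD11c-negative cells. At 0 in all CD11c-negative replicates were 8 called genes, so their folds are lower bounds against a floor of 3 counts over that group. Ifi27l2a, an interferon-induced gene, stood at 156, 103 and 119 CPM, at least 459.7-fold higher (edgeR adjusted p = 0.0314). Rab7b stood at 125, 25.7 and 136 CPM (at least 327-fold, edgeR adjusted p with the replicate block 0.0567), Gm1673 at 147, 40.98 and 98.7 CPM (at least 362-fold) and Etl4 at 93.3, 33.3 and 25.7 CPM (at least 217-fold). The other 4 of the 8 were Ncam1, Rian, Trim37 and Cyfip2, which were found in 8, 4, 7 and 6 of the 362 CD11c-positive cells, with 76.5%, 57.0%, 38.7% and 68.2% of their counts in 1 cell. Without the cells that held markers of other types these 4 were not called (edgeR adjusted p = 0.134, 0.314, 0.323 and 0.180), while their fitted changes hardly moved, from 8.66, 8.34, 8.28 and 8.24 to 8.38, 8.16, 8.07 and 7.92. Gas7, which links membranes to actin (chromosome 11, 67455437 to 67688990), stood at 369, 649.7 and 390.1 and 0, 0, 1.27 and 0 CPM (9.93 ± 1.34, edgeR adjusted p = 0.00025), and 30.3% of thinned CD11c-positive cells and 0 of 409 thinned CD11c-negative cells held it, which for counting error alone allows up to 0.733% of such cells with a count. Without thinning the shares for Gas7 were 43.1% and 0.235%. Chst2, a sulfotransferase that modifies glycans, stood at 815, 1107 and 407 and 0.266, 0, 21.6 and 0.818 CPM (6.96 ± 1.37, edgeR adjusted p = 0.0127). Wfdc17 stood at 185, 83.3 and 59.5 CPM, against 1 count in CD11c-negative replicate 4, a ratio of 1363-fold (95% exact interval 244 to 53878) (edgeR adjusted p = 0.0488), with 26.6% of its counts in 1 cell. Akap5, an anchor of protein kinase A, stood at 109, 41.98 and 57.5 and 0.533, 1.33, 9.64 and 0 CPM (4.49 ± 1.04, edgeR adjusted p = 0.0433), with 43.7% of its counts in 1 cell, and its change of 4.39 without the cells that held markers of other types was not called (edgeR adjusted p = 0.273), nor was it with the replicate block (edgeR adjusted p = 0.117).

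Other genes that rose had measurable levels in both gates. Ttyh2, of the tweety family of anion channels, stood at 280.0, 534 and 396 and 10.9, 24.5, 89.6 and 4.91 CPM (3.62 ± 0.77, edgeR adjusted p = 0.0241). Syngr1, a vesicle membrane protein, stood at 1954, 2338 and 2082 and 489, 659, 718 and 683 CPM (1.74 ± 0.30, edgeR adjusted p = 0.00392). Rap2b, a small GTPase, stood at 804, 1414 and 875 and 204, 159.7, 455 and 322 CPM (1.85 ± 0.34, edgeR adjusted p = 0.00747). Each of these 3 genes was higher in every CD11c-positive than in any CD11c-negative replicate. The RNA-binding protein gene Hnrnpa1 had CD11c-positive values close to each other, 436, 445 and 436 CPM, against 101, 126, 178 and 74.4 CPM (1.87 ± 0.36, edgeR adjusted p = 0.0114). The superoxide dismutase gene Sod1 stood at 1668, 2517 and 1827 and 671, 697, 781 and 1300.1 CPM (1.22 ± 0.19, edgeR adjusted p = 0.00115). Sdf2l1, which works with chaperones of the endoplasmic reticulum, stood at 924, 1093 and 984 and 296, 473, 309 and 525 CPM (1.32 ± 0.23, edgeR adjusted p = 0.00381). Myh9, the heavy chain of non-muscle myosin, rose from 671 ± 34.1 to 1253 ± 212 CPM, the phosphatase gene Dusp3 from 1242 ± 125 to 2273 ± 464 CPM, the RNA demethylase gene Alkbh5 from 665 ± 109.7 to 1139 ± 175 CPM and the syndecan gene Sdc4 from 125 ± 32.9 to 351 ± 139 CPM. Cd63-ps, a processed copy of Cd63, rose from 207 ± 29.4 to 678 ± 128 CPM and may have taken reads of Cd63, so its count is uncertain. Fam221b, Serf2, Eef1a1, Fau and St13 also rose, by 1.83, 1.42, 1.52, 1.64 and 0.89 on the log2 scale.

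The promoters of called genes were searched for 6 short motifs in the 250 bases before each RefSeq start on GRCm38.p6, on both strands. RefSeq windows were found for 43 of the 66 genes that rose (49 windows) and 9 of the 16 that fell (11 windows). CACGTG, the E-box of the MiT/TFE and USF factors, occurred in 6.02% of all 32851 windows, in windows of 4 genes that rose (Insig1, Etl4, Rpl34 and Serf2, 10.2% of windows) and of 2 that fell (P2ry12 and Sema4b, 18.2%). TCACGTGA, which contains CACGTG, occurred in 0.785% of all windows and in those of Rpl34. TGANTCA, the AP-1 site, occurred in 6.75% of all windows, in those of Igf1, Cd68 and Hnrnpa1 among the genes that rose (6.12%) and of Adgrg1 among those that fell (9.09%). The interferon-stimulated response element occurred in 2.98% of all windows and in those of B2m and Rpl5 (4.08%). TCACNCCAC, a sterol response element (1.05% of all windows), and GAGGAAGT, a PU.1 site (2.44%), occurred in none of the called genes' windows, which says only that these letters are not there. The counts of windows are small, and a match is a description, not a bound site.

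The upstream stretches below belong to called genes of either direction that hold a match, which stands in capitals. They are from RefSeq on GRCm38.p6, 5′ to 3′ on the strand of the gene. Insig1, at chr5:28071162-28071411 on the plus strand, and P2ry12, at chr3:59262986-59263235 on the minus strand, rose and fell, and both hold CACGTG. Igf1, at chr10:87860861-87861110 on the plus strand, Cd68, at chr11:69666171-69666420 on the minus strand, and Adgrg1, at chr8:94984149-94984398 on the plus strand, hold TGANTCA, Cd68 and Adgrg1 at 2 places each. B2m, at chr2:122147437-122147686 on the plus strand, holds the interferon-stimulated response element.
Insig1: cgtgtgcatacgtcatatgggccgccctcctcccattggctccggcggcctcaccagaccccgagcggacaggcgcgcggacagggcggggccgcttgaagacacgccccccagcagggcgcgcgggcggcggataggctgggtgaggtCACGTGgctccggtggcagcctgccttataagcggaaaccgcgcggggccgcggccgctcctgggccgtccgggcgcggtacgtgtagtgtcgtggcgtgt
P2ry12: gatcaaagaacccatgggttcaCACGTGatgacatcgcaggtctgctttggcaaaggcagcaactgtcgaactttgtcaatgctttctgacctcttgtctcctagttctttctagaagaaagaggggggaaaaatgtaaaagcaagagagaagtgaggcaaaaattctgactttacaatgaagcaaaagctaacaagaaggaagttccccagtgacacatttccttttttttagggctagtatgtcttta
Igf1: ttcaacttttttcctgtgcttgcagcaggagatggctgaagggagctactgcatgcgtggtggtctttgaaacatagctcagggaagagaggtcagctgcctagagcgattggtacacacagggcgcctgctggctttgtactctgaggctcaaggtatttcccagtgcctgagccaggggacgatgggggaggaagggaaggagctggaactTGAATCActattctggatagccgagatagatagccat
Cd68: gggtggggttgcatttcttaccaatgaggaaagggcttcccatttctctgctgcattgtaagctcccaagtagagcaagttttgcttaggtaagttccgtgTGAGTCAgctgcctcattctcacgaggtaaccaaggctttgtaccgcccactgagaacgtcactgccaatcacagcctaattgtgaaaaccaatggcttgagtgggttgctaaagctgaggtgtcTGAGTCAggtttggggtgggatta
Adgrg1: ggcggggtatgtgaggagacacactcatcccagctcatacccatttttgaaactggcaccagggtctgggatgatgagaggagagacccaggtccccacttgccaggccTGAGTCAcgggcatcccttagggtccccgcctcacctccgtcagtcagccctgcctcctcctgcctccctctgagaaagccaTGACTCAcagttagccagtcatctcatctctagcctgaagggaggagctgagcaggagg
B2m: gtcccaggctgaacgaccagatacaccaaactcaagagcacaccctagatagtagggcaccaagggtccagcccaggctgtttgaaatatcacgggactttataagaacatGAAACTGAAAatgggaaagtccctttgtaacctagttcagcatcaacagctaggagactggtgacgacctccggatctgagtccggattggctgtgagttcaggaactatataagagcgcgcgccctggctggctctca

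Genes of immune signalling showed few calls in number. For comparison, 0.551% of all tested genes were called and 7.94% were higher without overlap. Of 22 tested MHC class I genes 1 rose, B2m, the light chain of class I molecules (chromosome 2, 122147686 to 122153083), at 2629.7, 3361 and 2537 and 1146, 1744, 1087 and 1348 CPM (1.09 ± 0.16, edgeR adjusted p = 0.000889), and the list median was 0.50. MHC class II had 0 calls by edgeR among 12 tested genes (5 at an unadjusted p under 0.05, 1 call by DESeq2 and 2 by limma voom), with a median of 1.02. The class II chain gene H2-Aa was highest in CD11c-positive replicate 4: it stood at 76.7, 28.3 and 341 and 1.86, 0, 0 and 0 CPM (edgeR adjusted p = 0.324). The invariant chain gene Cd74 stood at 167, 131 and 462 and 4.26, 13.9, 13.95 and 0 CPM (edgeR adjusted p = 0.326), and CD11c-positive replicate 4 also had the highest CD11c-positive sums of dendritic, monocyte and neuronal markers, whose part in these values was not tested. Among 18 tested chemokines and cytokines 0 passed by edgeR (9 at an unadjusted p under 0.05, 5 calls by DESeq2 and 4 by limma voom), while 8 were higher without overlap and the median was 2.51. The chemokine gene Ccl3 came closest, at 309, 283 and 155 and 4.53, 0, 12.2 and 1.64 CPM (edgeR adjusted p = 0.0591), and Ccl6 stood at 957, 1422 and 1089 and 193, 169, 339 and 280.5 CPM (edgeR adjusted p = 0.172). The type I interferon list had 1 rise, Ifi27l2a, and 1 fall, Tmem173, among 29 tested genes, and its median of 1.56 was −0.40 over the 4 members of at least 50 CPM. Of 27 cytokine and chemokine receptors 2 fell, Cx3cr1 and Ifngr1, with a median of −0.51. The 12 tested complement genes had 0 calls by edgeR, DESeq2 or limma voom, 0 at an unadjusted p under 0.05 and a median of −0.03, and C1qa, C1qb and C1qc of the first component overlapped between the gates. For instance, C1qc stood at 3317, 3796 and 3557 and 3319, 3777, 3139 and 4282 CPM (edgeR adjusted p = 1).

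Several mitochondrial and ribosomal transcripts were higher in CD11c-positive cells. Of 15 tested genes of the mitochondrial genome 3 rose, all 15 were higher without overlap, and the median was 1.51. The shares over all tested genes were 0.443% that rose and 7.94% higher without overlap. The cytochrome b gene mt-Cytb stood at 2870.2, 2876 and 2957 and 1356, 1087, 1379 and 2129 CPM (0.96 ± 0.17, edgeR adjusted p = 0.00417), and mt-Nd6 at 936, 993 and 896 and 236, 150.4, 120.0 and 338 CPM (2.16 ± 0.49, edgeR adjusted p = 0.04). The remaining 1 of the 3 was mt-Atp6, and the transfer RNA gene mt-Te, which is not on the list, rose too. Gm10925, a pseudogene on chromosome 1, rose by 1.13 to levels close to those of mt-Atp6 in every replicate, 1304, 969 and 948 against 1235, 904 and 896 CPM in CD11c-positive cells, so both counts are uncertain. Of 80 tested cytosolic ribosomal protein genes 7 rose, 52 were higher without overlap, 77 had a positive change and the median was 1.05. Those 7 were Rps28, Rpl41, Rpl34, Rps25, Rps3, Rps14 and Rpl5, for example Rps14 at 1005, 960.2 and 1037 and 489, 279.6, 286 and 532 CPM (1.33 ± 0.28, edgeR adjusted p = 0.0257). Gm6988, Gm9843, Gm4963, Gm2225, Rps25-ps1, Gm8566 and Gm15500, which are annotated as pseudogenes, and the non-coding Gm10076 rose as well, and their counts are uncertain, since pseudogenes can share reads with their parent genes. Of 39 nuclear genes of the respiratory chain 1 rose, the complex I subunit gene Ndufa1 at 306, 427 and 268 and 35.7, 89.5, 50.2 and 53.97 CPM (2.54 ± 0.46, edgeR adjusted p = 0.00561), with 34 positive changes and a median of 0.76. The mitochondrial share and the genes detected per cell moved the same way as these groups, and with detected genes as a covariate Rps25 was called while the other 6 ribosomal genes, Ndufa1 and the 3 mitochondrial genes were not. The changes with the covariate were 1.99 for Rps28, 1.61 for Rpl41, 1.48 for Rpl34, 1.78 for Rps3, 1.38 for Rps14, 0.98 for Rpl5, 2.50 for Ndufa1 and 0.87 for mt-Cytb, close to or above those without it. For mt-Nd6 and mt-Atp6 they were smaller, 1.19 and 0.62 against 2.16 and 1.11.

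The other lists had few calls in number, to be read beside the 0.551% of all tested genes that were called. Of 34 cytoskeletal genes 2 rose, Gas7 and Akap5, while Actb stood at 9768 ± 1803 and 9135 ± 1538 CPM with overlap. Iron and oxidative stress genes had 2 rises, Fth1 and Sod1, among 27. Leukocyte integrins and adhesion receptors had 1 rise, Cadm1, and 2 falls, Selplg and Adgrg1, among 18, with a median of −0.58. Purinergic genes had 1 fall among 14, P2ry12, and a median of −0.86, and the related receptor gene P2ry13 stood at 136 ± 68.8 and 420.3 ± 174 CPM (edgeR adjusted p = 0.0797). TGF-beta and Notch genes had 0 calls by edgeR among 27 (6 at an unadjusted p under 0.05, 4 calls by DESeq2 and 2 by limma voom) and a median of −0.76, with Tgfbr1 at 686, 596 and 651 and 1352, 804, 1151 and 839.8 CPM (edgeR adjusted p = 0.238). Microglial transcription factors had 0 calls by edgeR among 34 (4 at an unadjusted p under 0.05, 3 calls by DESeq2 and 2 by limma voom) and a median of −0.02, and the chromatin list had 1 fall, Kdm6b, among 31 and a median of −0.07. Semaphorins and plexins had 1 fall among 16, Sema4b, against a median of 0.60. Phagocytic and pattern recognition receptors had 0 calls by edgeR among 31, with 12 at an unadjusted p under 0.05, 2 calls by DESeq2, 4 by limma voom and a median of 0.23. Glycolytic and hypoxia genes had 0 calls by edgeR and by DESeq2 among 27, with 5 at an unadjusted p under 0.05, 3 calls by limma voom and a median of 0.98. Cell cycle genes had 0 calls by edgeR among 26, with 6 at an unadjusted p under 0.05, 3 calls by DESeq2 and 4 by limma voom. Their median of 0.74 was 0.31 over the 4 members of at least 50 CPM. Growth factor and matrix genes had 1 rise among 22, Igf1, and their median of 1.31 was 0.23 over the 7 members of at least 50 CPM. Tetraspanins had 2 rises among 14 (median −0.02), and orthologues of Alzheimer risk genes 1 among 30, Apoe (median −0.02). All these lists were chosen with earlier results of these data known, so their counts describe the members and are not independent evidence.

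**Figure D3:**
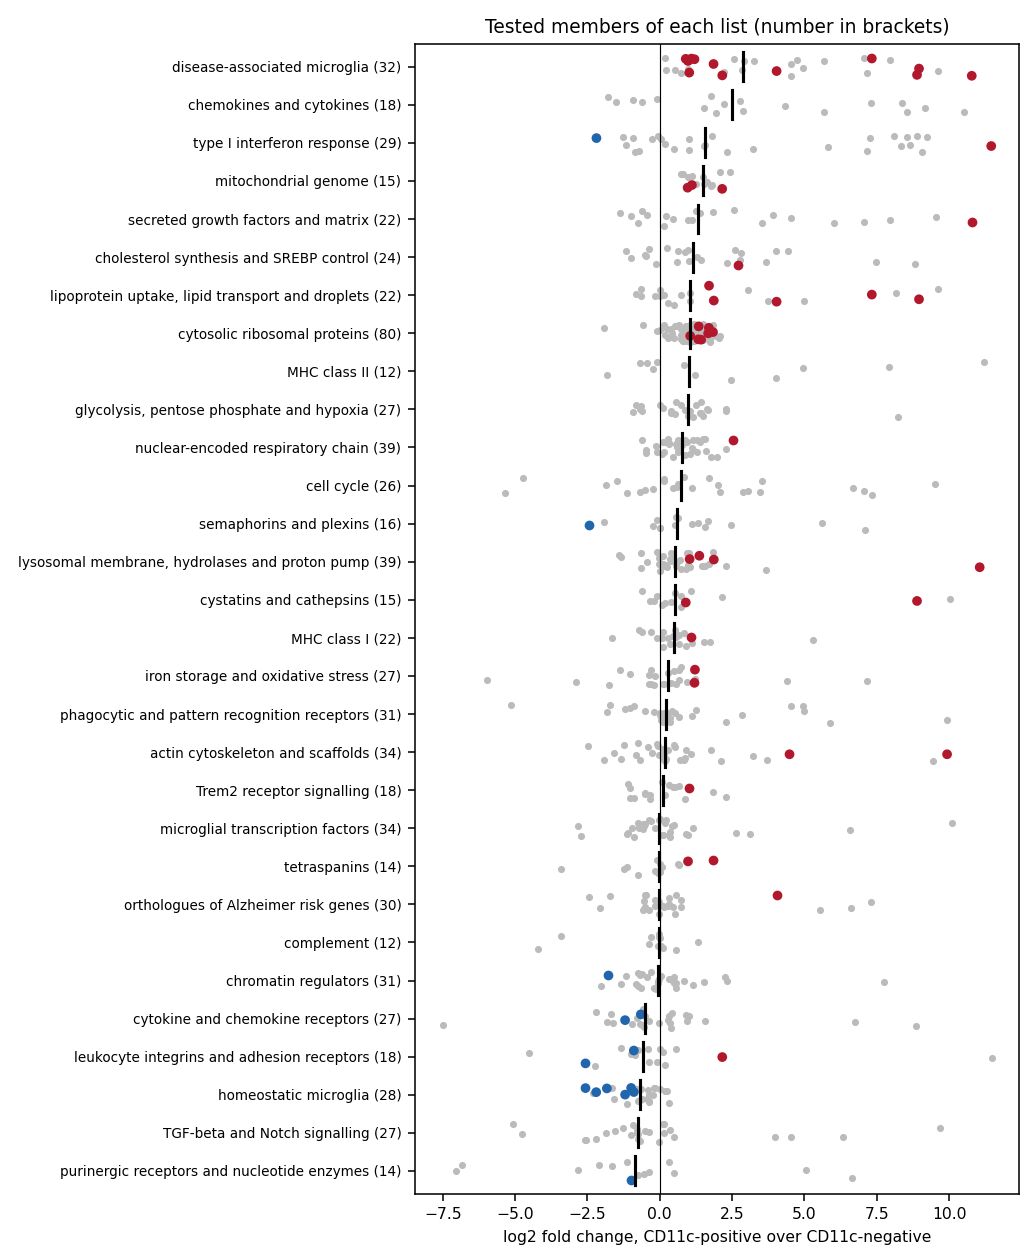
Fitted log2 fold change of CD11c-positive over CD11c-negative cells for each tested member of 30 lists, ordered by the list median (black bars). Red members rose, blue fell and grey were not past the test, and the largest median, 2.88, is that of the disease-associated list.

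Hippocampal WT microglia, CD11c-negative cells of 4 replicates, were set beside both gates for each called gene. Nearness of means was taken on the scale of log2 of CPM plus 1. On it, for all 16 genes that fell the WT mean lay nearer to the CD11c-negative than to the CD11c-positive APP mean. In CPM, Slc2a5 and Camk2n1 were exceptions. Their WT means were 361 and 96.6, nearer to the CD11c-positive (169 and 20.4) than to the CD11c-negative means (601 and 201). The WT range overlapped only the CD11c-negative range in 10 of the 16 genes and neither range in 6. Sema4b, for instance, stood at 1298, 1337, 1751 and 1686 CPM in WT replicates, above both APP gates, and Ifngr1, Otulinl and Gm15503 lay above both too. Cx3cr1, at 1235 to 1960 CPM, and Slc2a5, at 325 to 399 CPM in WT replicates, lay between the gates. In these 2 genes the CD11c-negative APP cells were thus above the WT cells. Of the 66 genes that rose 45 had a WT mean nearer to the CD11c-negative mean. Apoe stood at 240.3, 103, 329 and 794 CPM, Cst7 at 10.99, 16.8, 57.9 and 0 CPM and Cd63 at 642, 532, 731 and 741 CPM in WT cells, near the CD11c-negative APP cells. For the other 21 genes that rose the WT mean lay nearer to the CD11c-positive mean on the log2 scale. In CPM, Ifi27l2a, Ncam1, Rap2b, Gm6988 and Hnrnpa1 were exceptions, with WT means nearer to the CD11c-negative mean. Nearly all of the Ifi27l2a level in WT cells came from replicate 3, at 51.9 CPM. Insig1 stood at 529.9, 320.5, 668 and 517 CPM in WT cells, above all CD11c-negative APP values (149, 113, 98.4 and 76.9 CPM) and partly in the CD11c-positive range. Gm2a stood at 2992, 2702, 3572 and 2589.6 CPM, Dusp3 at 2647, 1803, 2895 and 2141 CPM, Alkbh5 at 1636, 1126, 1578 and 1353 CPM and Myh9 at 1303, 1160.2, 1452 and 935 CPM in WT cells, each above every CD11c-negative APP replicate. In these genes the CD11c-negative APP cells were thus the lowest of the 3 groups. WT cells had the fewest detected genes, 441 to 556 per cell at equal depth, and the lowest mitochondrial share, 0.591% to 0.722%.

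**Figure D4:**
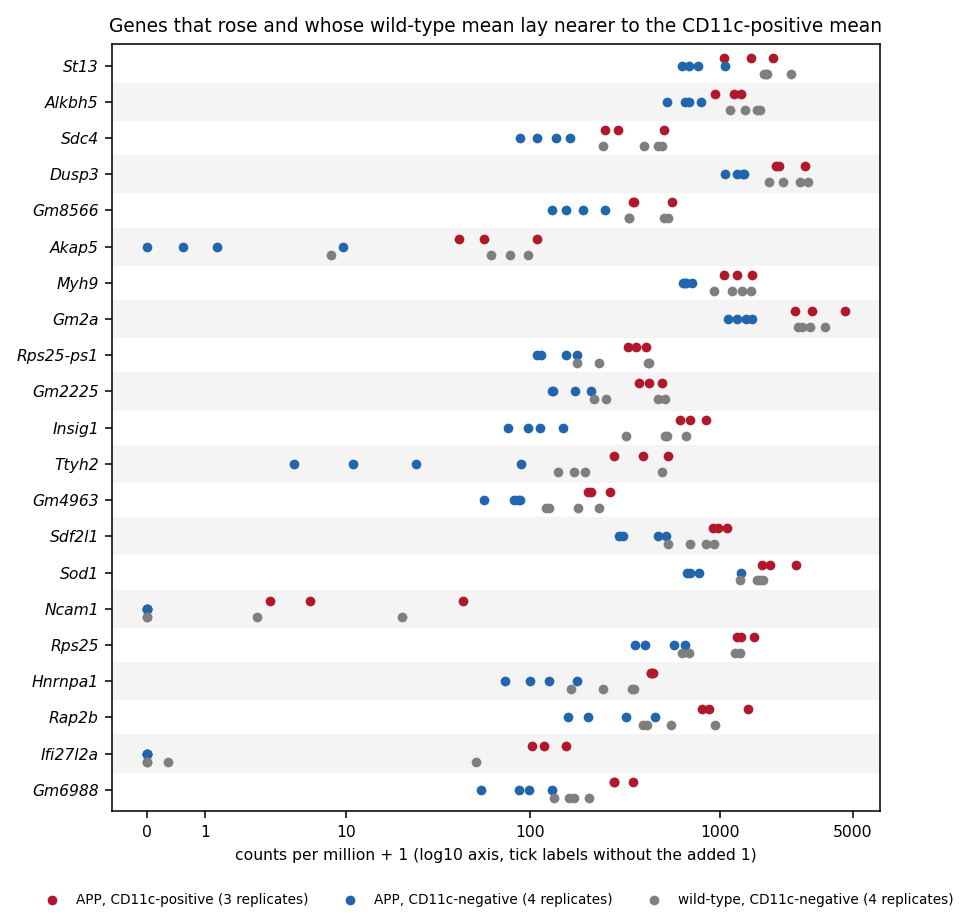
CPM in each hippocampal replicate (log10 axis after adding 1 CPM, tick labels without it) of 21 genes that rose. Their WT mean (grey) was nearer to the CD11c-positive (red) than the CD11c-negative mean (blue), taken as log2 of CPM plus 1. The 4 WT points of Insig1, Gm2a, Dusp3, Alkbh5 and Myh9 lie above all 4 blue points.

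In cortex the same gate was compared in 8 APP replicates, 4 for each gate, where 183 of 14892 genes were called (1.23%). Of the 82 hippocampal calls 48 were also called in cortex (58.5% of the hippocampal and 26.2% of the cortical calls), 36 up and 12 down in both. Cd63 changed by 1.97 ± 0.20 in cortex (edgeR adjusted p = 3.44e-06), Tmem119 by −1.995 ± 0.15 (edgeR adjusted p = 8.58e-09) and Sema4b by −3.04 ± 0.20 (edgeR adjusted p = 6.39e-10). The remaining 34 were not past the test in cortex, and 3 of them had the opposite sign there, St13, Alkbh5 and Camk2n1. The test of the difference between the regions called 0 genes (0% of 14892, edgeR, lowest adjusted p 0.315), with 1116 genes at an unadjusted p under 0.05 and 251 and 18 calls by DESeq2 and limma voom, so by this fit no hippocampal change was shown to differ from the cortical one. Without the filter on low counts edgeR called Gas7 and Camk2n1 (adjusted p = 0.00112 and 0.00688), and in the 4 APP groups alone Gas7 (adjusted p = 0.0332). Camk2n1 had the smallest unadjusted p: it fell in hippocampus and stood at 482 ± 248 CPM in CD11c-positive against 263 ± 169 CPM in CD11c-negative cortex (n = 4 each), a difference of changes of −4.19 ± 0.83 (edgeR adjusted p = 0.315). Gas7 stood at 790.0 ± 177 and 106 ± 98.8 CPM in cortex, where CD11c-negative cells held it, and its difference of changes was 7.02 ± 1.49 (edgeR adjusted p = 0.315). Among the next smallest p values were Adam10, Kmt2d and Zfhx3, with differences of 0.99 ± 0.20, 0.78 ± 0.17 and 1.26 ± 0.29 (edgeR adjusted p = 0.315, 0.315 and 0.372). Myh9 and Rab7b stood at 1353 against 1292 and at 68.8 against 24.4 CPM in the cortical gates.

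**Figure D5:**
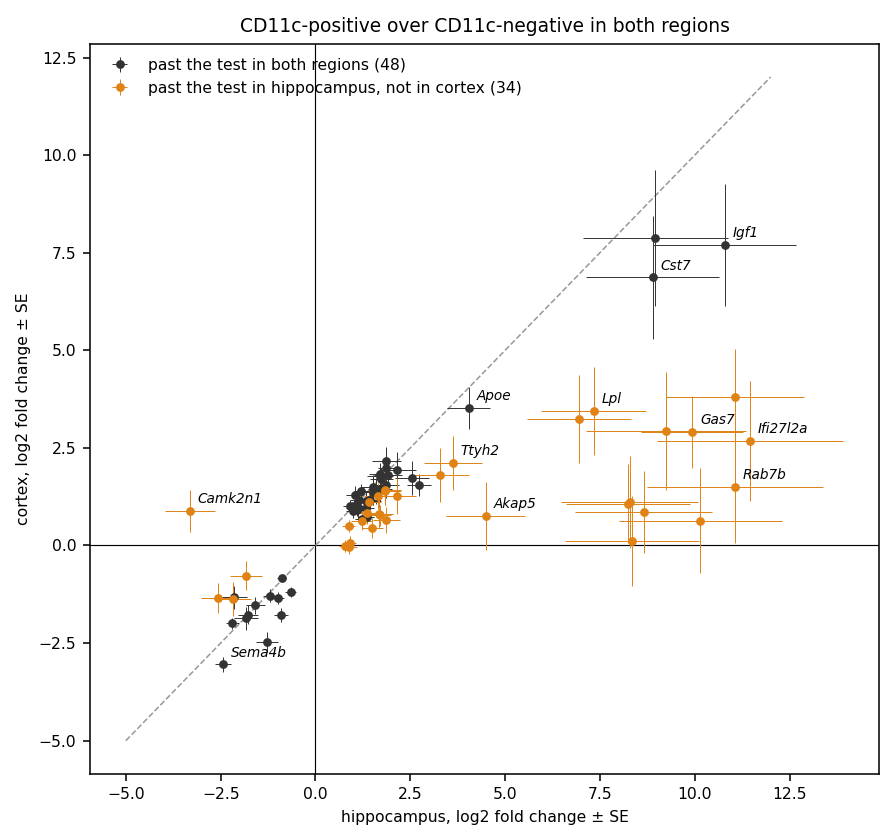
Log2 fold change ± SE of CD11c-positive over CD11c-negative cells in hippocampus (x axis) and cortex (y axis) for the 82 genes called in hippocampus, with the line of equal change dashed. The 48 dark points were past the test in both regions and the 34 orange points in hippocampus and not in cortex, and the difference between regions was not past the test for any of them in the fit of all 6 groups.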

How the data were processed

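Single microglia were measured in 36 libraries, 11 of which enter the comparison described above, and the members and gene lists were chosen with earlier results of these data known. The authors deposited tables of unnormalized read counts, with genes in rows and cells in columns, made with UMI-tools 0.5.3, HISAT2 2.1.0 and featureCounts 1.6.0 on GRCm38 (mm10), per the submitters' processing notes. Merging of reads by molecular identifier and use of strand are not given in the sources, and 86.7% of the counts lay in entries of 20 or more, so intervals and floors cover counting error only. Gene symbols and positions are from GENCODE vM21, which matched 26348 of 26348 identifiers. Cells with under 200 genes or over 20% mitochondrial counts were removed (0 of 788).

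Counts were summed per replicate and fitted with edgeR 4.0.16 (TMM, filterByExpr, quasi-likelihood F test, R 4.3.3) over all 23 replicates of 6 groups with 17 residual degrees of freedom, which left 14892 genes and adjusted p under 0.05 as the threshold. Alternatives were DESeq2 1.42.0 (an adjusted p it did not give was left out), voom of limma 3.58.1, other scalings, filters, samples and cell weights, fixed with the design. Measures per replicate had exact permutation tests over 35 assignments. Replicate values were given for 20 rising and 12 falling genes of largest fold change, among called genes with a mean of 50 CPM or more in the higher gate and no overlap of replicates, leaving out predicted, mitochondrial and ribosomal genes. Each list added its called members, up to 4 members of highest mean level and up to 3 of smallest p, and gate by region the 5 smallest p. Itgax, App and Prnp were always given, and the other called genes were named or counted. Values of a few list members are not reported here. List medians were the same with genes at 0 set to their bound. The pairing of the gates comes from the animal names, which recur in the titles of both. Deviations of same-named replicates correlated between −0.035 and 0.012 in hippocampus and between 0.064 and 0.121 in cortex. The genes whose call the block changes are named in the results, and blocked values stand beside some of them.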

Additional observations from a re-analysis of the deposited data

Results flagged for a closer look

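In the CD11c-negative group of 4 replicates, 10 of 97 measured values had 1 replicate far from the other 3 by Dixon's criterion. It flags about 1 in 20 groups by chance where values are normally distributed. Genes with 3 replicates at 0 are flagged by any count in the other, and genes at 0 in all 4 never are. The number flagged therefore cannot be set against that rate. Igf1, Wfdc17 and Ch25h stood at 0.818 CPM in replicate 4 and at 0 in the others, which is a single count each. Gas7 stood at 1.27 CPM in replicate 3 and at 0 in the others. Chst2 stood at 21.6 CPM, Akap5 at 9.64 CPM and Rpl34 at 365 CPM in replicate 3, each above the other 3 replicates. The pseudogene Gm15500 stood at 352 CPM in replicate 1, above the others. Replicate 4 had the lowest astrocyte marker sum, 175 CPM, and the lowest dendritic marker sum, 7.98 CPM. The 3 CD11c-positive replicates were too few for this criterion.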

How the results depend on the processing

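The 82 calls between the gates moved with the method. They numbered 582 by DESeq2 (308 up, 274 down, 80 of the 82 among them), 336 by limma voom, 581 when cells with 5 or more counts were counted, 162 in a fit of the 4 APP groups alone, 36 with 1-2 and 2-3 summed and 35 with detected genes as covariate. A fit of only the 2 hippocampal APP groups, which takes no spread from the other groups, gave 58 calls. It kept 34 of the 82, 25 up and 9 down, while the fit of the 4 APP groups kept 79. Leaving out 1 replicate gave 30 to 59 calls. Of 1710 refits of single called genes 1070 kept the direction and the call, 639 kept the direction alone and 1 turned, Ctsz, at −0.076 by cells with 5 or more counts. App, not called at −0.02, stood at 0.22 by that measure, 0.0096 without marker-bearing cells, 0.080 with 1-2 and 2-3 summed and −0.41 to 0.29 without 1 replicate each. Itgax was called by limma voom (adjusted p = 0.017) and by no other alternative. With DESeq2-type (RLE) size factors the gate had 78 calls, and the median change of the Trem2 list turned to −0.10. Gate by region had 0 calls and 251 by DESeq2, 18 by limma voom, 2 with no filter (Gas7 and Camk2n1) and 1 in the 4 APP groups (Gas7). It had 0 in every fit without 1 hippocampal replicate. With the animal number as replicate block the gate had 115 calls (66 of the 82 among them) and gate by region 0, and it ended no other call of the 82 than the 16 the report names. Keeping the CD11c-negative replicates tagged tg left out replicate 3 and gave 55 calls, and a grouping by tag could not be fitted, since every CD11c-positive library is tagged wt. Depth limits low genes, since 1 count equalled 0.818 CPM in CD11c-negative replicate 4. Causes of these moves were not tested.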
